A study of Mus musculus with 16 samples.

Results

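Cell cycle and DNA replication genes were examined in small regions of the early mouse head and face. They were chosen by name: cyclins A, B, D, E and F, cyclin-dependent kinases (CDKs) and their inhibitors, Mcm, Orc, Gins, E2f, Rb, Cdc, Aurora and polo kinase, Bub and Cenp genes, Pcna, Mki67 and Top2a. The pattern found 111 rows of the 15876 genes measured, with 110 symbols, because Cdc73 stands on 2 rows. Names with a Cdc or Cdk root were kept whatever their role. Transcription kinases such as Cdk9 and Cdk12 and the small GTPase Cdc42 are therefore among them. They stand in role groups of their own but are included in all counts of members.

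Cells divide by passing from growth to DNA copying and then to mitosis. D cyclins with Cdk4 or Cdk6 inactivate the retinoblastoma proteins, which frees E2F factors to activate replication genes, and Mcm helicases loaded by the origin recognition complex then open the DNA. Cyclin B with Cdk1 drives mitosis, and Cdc20 with the anaphase promoting complex ends it. The Cip/Kip inhibitors Cdkn1a, Cdkn1b and Cdkn1c and the Ink4 inhibitors hold CDKs back, often as progenitors leave the cycle to become neurons.

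RNA-seq was carried out on CD1 mouse embryos in 16 libraries, 4 at embryonic day (E) 8.5, 4 at E9.5 and 8 at E10.5, with 1 library for each region and stage. Neural epithelium, the progenitor tissue, had 6 libraries: caudal brain, floor plate and non-floor plate at E8.5, and at E10.5 those labelled lateral prominence, central and dorsal control. Mesenchyme had 8: E8.5 mesoderm, E9.5 cranial mesenchyme, the mandibular and maxillary arches at E9.5 and E10.5, and the E10.5 lateral and medial nasal prominences. Ectoderm and placode tissue had 2, E9.5 epidermal ectoderm and the E10.5 olfactory pit. No allele or treatment is named in the labels, and they do not say how many embryos gave each library. Each class pools different regions, and p-values therefore reflect how regions vary rather than how repeats of 1 region would.

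The deposited values are ratios of each gene to its own median over the 16 libraries. A relative value below is that ratio after the shift of the library was removed, so that 1 is the median of the gene seen against the median gene of the library. It compares libraries for 1 gene and never one gene with another. Of the 111 rows, 95 had no shared lowest value, and 16 had a lowest value shared by several libraries, which is called the floor here. Tests covered the 109 rows above the floor in at least 3 libraries. Ccna1, the germ-cell cyclin A, and Cdkn2c, an Ink4 inhibitor, were each above the floor in 1 library and were not tested. A gene was called at a Benjamini-Hochberg adjusted p under 0.05 in limma over all 12851 genes tested.

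Several libraries stand apart. The library labelled medial nasal prominence goes against its label: 10 of 11 mesenchyme markers, among them Prrx1, Twist1 and Msx1, were at their lowest value there, and all 8 neural progenitor markers were above theirs. Member counts are therefore given with and without it, as are the values of members named in the comparisons it enters, except Cdk5, which was not tested without it. The other E10.5 libraries except the olfactory pit, 6 in all, had lower values across genes, with shifts of -0.82 to -0.07 on the log2 scale against -0.004 to 0.40 in the other 10. They held 63.8% to 81.5% of the genes with a floor at that floor, against 50.6% to 59.1% in the others. Since stage and this difference fall together, they cannot be told apart in the stage comparisons. The central and dorsal control neural libraries carry each other's names in their file headers and are called by their labels. Surface epithelium markers were all above their lowest value in epidermal ectoderm and the olfactory pit. Of 10 neuron markers, 9 were above theirs in the olfactory pit, 9 in the central neural library and 7 in epidermal ectoderm. Epidermal ectoderm also had 7 of 11 mesenchyme and 6 of 8 neural progenitor markers above theirs, and the olfactory pit 4 and 5.

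Promoter sequences of 5 members are shown because the letters linked to cell cycle control occurred in members that differed in opposite directions between stages. Each is the 250 bases before the RefSeq start site in GRCm38.p6, 5′ to 3′. Capitals mark E2F letters (TTTCCCGC, TTTGGCGC, TTTCGCGC or TTTGCCGC), CHR letters (TTTGAA, the cell cycle homology region) or CCAAT, each on either strand. The files themselves used mm9, and no coordinate was carried between builds.
Rbl1: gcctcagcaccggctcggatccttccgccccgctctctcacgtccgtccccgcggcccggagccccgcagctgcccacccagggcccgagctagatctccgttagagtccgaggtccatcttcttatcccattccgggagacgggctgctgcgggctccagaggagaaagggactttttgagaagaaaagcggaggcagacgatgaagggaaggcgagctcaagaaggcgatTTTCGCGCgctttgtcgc
E2f7: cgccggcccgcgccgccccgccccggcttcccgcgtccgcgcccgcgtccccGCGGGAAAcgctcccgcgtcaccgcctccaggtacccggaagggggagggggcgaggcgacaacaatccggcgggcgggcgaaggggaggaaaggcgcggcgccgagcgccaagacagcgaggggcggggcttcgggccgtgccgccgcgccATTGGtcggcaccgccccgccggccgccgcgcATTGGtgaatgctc
Mcm5: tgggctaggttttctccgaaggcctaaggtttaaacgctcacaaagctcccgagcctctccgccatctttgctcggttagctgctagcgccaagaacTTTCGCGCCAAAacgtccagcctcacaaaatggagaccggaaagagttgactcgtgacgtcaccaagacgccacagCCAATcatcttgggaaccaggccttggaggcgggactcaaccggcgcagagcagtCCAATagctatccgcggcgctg
Cdc20: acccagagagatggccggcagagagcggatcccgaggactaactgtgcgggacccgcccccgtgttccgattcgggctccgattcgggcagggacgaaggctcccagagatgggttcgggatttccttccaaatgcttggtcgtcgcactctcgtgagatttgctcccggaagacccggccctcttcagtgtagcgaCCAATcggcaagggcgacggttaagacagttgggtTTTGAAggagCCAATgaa
Mki67: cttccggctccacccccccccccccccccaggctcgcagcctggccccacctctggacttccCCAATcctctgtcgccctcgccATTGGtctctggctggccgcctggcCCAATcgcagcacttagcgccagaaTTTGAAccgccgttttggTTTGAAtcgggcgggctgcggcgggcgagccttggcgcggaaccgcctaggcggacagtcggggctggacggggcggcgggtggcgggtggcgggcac

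The Rbl1 window lies at chr2:157204535-157204784 on the minus strand, and the E2f7 window at chr10:110745189-110745438 on the plus strand. Both hold E2F letters, and both genes rose from E8.5 to E10.5 in neural epithelium. Mcm5, a subunit of the replicative helicase, holds 2 overlapping E2F matches and 2 CCAAT boxes at chr8:75109259-75109508 on the plus strand, and its fitted difference over the same stages was below 0. Cdc20 at chr4:118437344-118437593 on the minus strand and Mki67 at chr7:135716380-135716629 on the minus strand hold CHR and CCAAT letters. Cdc20 fell in E10.5 neural epithelium, and Mki67 rose in E10.5 mesenchyme.

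RefSeq promoters were matched for 92 member genes with 109 start sites. E2F letters stood in 14.7% of these promoters and in 1.86% of the 32851 promoters of all genes. CCAAT was in 56.0% against 33.8%, and CHR letters in 23 of 109 against 5252 of 32851. Replication genes held E2F letters in 7 of 24 promoters, and the Rb and E2f group in 3 of 10. The mitotic kinases, checkpoint genes and markers held CHR letters in 5 of 10 promoters and CCAAT in 9 of 10. No E2F or CHR match stood in the 6 promoters of CDK inhibitors, which says only that these letters are not in these windows. Of the 16 members with E2F letters and a test, 8 lay above 0 and 8 below in E10.5 against E8.5 neural epithelium.

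The median ratio of the highest to the lowest library was 2.93-fold over the 109 members and 3.66-fold over all genes tested. The ratio was at least 4-fold in 31 members and at least 8-fold in 10. Those 10 included 2 CDK inhibitors, Cdkn1c and Cdkn1a, the kinase genes Cdk6 and Plk2, the cyclin Ccnd1 and the phosphatase Cdc25b. Orc4, a subunit of the origin recognition complex, had the widest range, 28.2-fold, which came from 1 library: its relative value was 0.044 in the dorsal control neural library and 0.587 to 1.25 in the other 15.

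**Figure D1:**
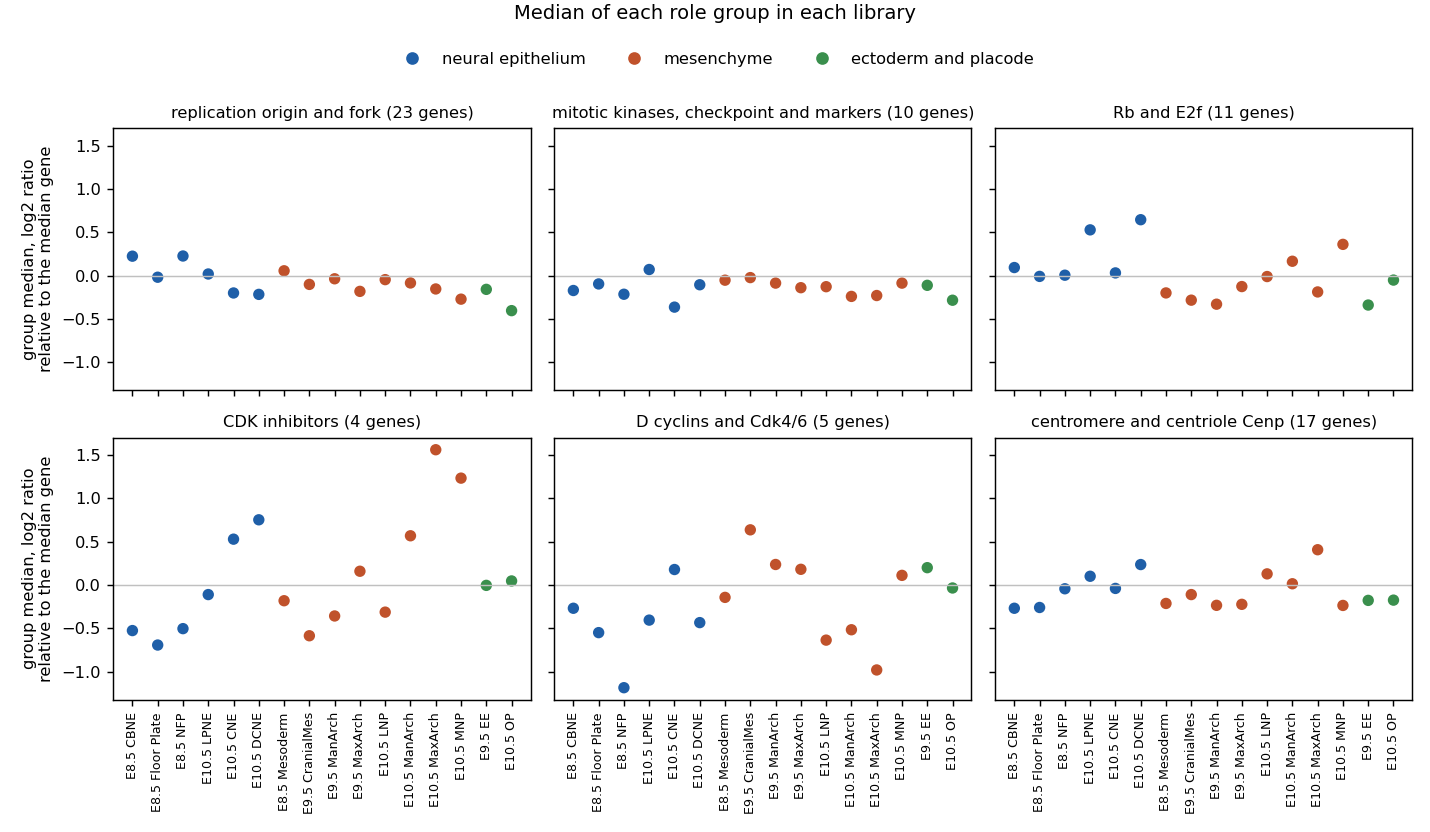
Median log2 ratio, relative to the median gene, of 6 role groups of cell cycle genes (y axis) in each of the 16 libraries (x axis), with 1 point a library coloured by tissue class. CBNE is caudal brain, NFP non-floor plate, LPNE lateral prominence, CNE central and DCNE dorsal control neural epithelium, CranialMes cranial mesenchyme, ManArch and MaxArch the arches, LNP and MNP the lateral and medial nasal prominences, EE epidermal ectoderm and OP olfactory pit. The 23 replication genes stayed between -0.41 and 0.23, while the 4 tested CDK inhibitors ranged from -0.69 to 1.56. Medians of few genes vary more.

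Neural epithelium and mesenchyme differed in 2 of the 109 members, Rb1 and Plk2. This was 1.83% of members, beside 1.53% of all genes tested. Without the library labelled medial nasal prominence, 3 of 108 were called, with E2f3 added, beside 6.32% of all genes. The replication genes and the mitotic group had no member called in this comparison, with and without that library. The median fitted difference was -0.01 on the log2 scale over members and -0.04 over all genes, and 54 members lay above 0 and 55 below.

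Rb1 encodes the retinoblastoma protein, which holds E2F factors inactive. Its relative value in neural epithelium was lowest at 1.12, in the middle at 1.93 and highest at 3.53. In mesenchyme the lowest was 0.529, the median 0.625 and the highest 1.85. The mesenchyme value of 1.85 was that of the library labelled medial nasal prominence, and the next was 0.992 in the lateral nasal prominence, so the classes did not overlap without the former. Rb1 was 2.57-fold higher in neural epithelium (log2 difference 1.36 ± 0.27 SE, limma adjusted p = 0.0251). Without that library the log2 difference was 1.53 ± 0.23 (adjusted p = 0.000911). In ectoderm and placode it was 0.700 in epidermal ectoderm and 1.64 in the olfactory pit, between or overlapping the others.

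Plk2 encodes a polo-like kinase known for centriole duplication and stress responses. Its relative values in neural epithelium were 0.362 to 0.570, and 4 of these 6 libraries were at the floor of the gene. In mesenchyme they ran from 1.46 to 3.39 in 7 libraries, highest in the lateral nasal prominence, with 0.592 for the medial nasal one. The 2 classes did not overlap. Plk2 was lower in neural epithelium by a log2 difference of -1.91 ± 0.36 (limma adjusted p = 0.0217), and by -2.23 ± 0.23 without that library (adjusted p = 8.17e-05). Epidermal ectoderm at 1.07 and the olfactory pit at 0.700 lay between the neural values and those of the 7 other mesenchyme libraries.

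Rb1 was not called with values as deposited (1.42 ± 0.40, adjusted p = 0.121), nor Plk2 with floor values as missing (-1.80 ± 0.56, adjusted p = 0.141). Both calls were also lost without single libraries, while the log2 differences stayed between 1.22 and 1.53 for Rb1 and between -2.23 and -1.71 for Plk2. With E8.5 mesoderm left out, the adjusted p was 0.0852 for Rb1 and 0.108 for Plk2. It was 0.0592 and 0.0555 without the E10.5 mandibular arch, 0.0576 and 0.0585 without the lateral prominence neural library, and 0.0724 and 0.0537 without the central one. Rb1 was also not called without the lateral nasal prominence (0.0601). E2f3, an activator E2F, was called only without the library labelled medial nasal prominence (log2 difference 0.64 ± 0.18, adjusted p = 0.0483). Endothelial and erythroid markers moved with this comparison: 3 of 7 erythroid genes tested, among them Hbb-bh1 and Hba-x, and 2 of 6 endothelial genes, Cdh5 and Egfl7, were lower in neural epithelium. Levels of marker lists are given over their lowest values, here and below, before the library shift was removed. The mean log2 level of the endothelial list was 0.00 to 0.48 in neural epithelium and 0.82 to 3.30 in mesenchyme. The erythroid list stood at 0.03 to 2.47 and 2.18 to 6.98, with Gata1 at its lowest value in 7 of 8 mesenchyme libraries. Their part in these results was not tested, and in tissue RNA fewer cells of a type and less RNA per cell cannot be told apart.

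Ectoderm and placode tissue differed from mesenchyme in 0 of 109 members by limma, beside 1.19% of all genes. At an unadjusted p under 0.05 there were 4 members, 3.67%, beside 10.4% of all genes. Without the library labelled medial nasal prominence 2 of 108 were called, Cdkn1a higher and Plk2 lower, beside 2.98%. Against neural epithelium 1 of 109 was called, Cdkn1a, beside 0.778% of all genes. It was also the 1 call without that library, beside 1.66%. The median member difference was -0.07 against mesenchyme and -0.08 against neural epithelium, where all genes had -0.07 and -0.03.

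The CDK inhibitors had the widest range of library medians among the role groups, but only 4 genes were tested, and medians of few genes vary more. The 2 stress-type polo kinases ranged from -0.87 to 1.07, and the 5 D cyclin and Cdk4/6 genes from -1.19 to 0.64. Cdkn1a encodes p21, a target of p53 and a brake on G1 and S phase kinases. In ectoderm and placode its relative value was 1.58 in epidermal ectoderm and 7.72 in the olfactory pit, the highest of all libraries. The next highest was 3.04 in the E10.5 maxillary arch. In neural epithelium it ran from 0.545 in the floor plate to 2.16 in the central library. In mesenchyme it ran from 0.459 to 3.04, with 4 of the 8 libraries at the floor of the gene. Both comparisons of ectoderm and placode overlapped, through epidermal ectoderm.

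Cdkn1a was 6.25-fold higher in ectoderm and placode than in neural epithelium (log2 difference 2.64 ± 0.57, limma adjusted p = 0.0414). It was not called with floor values as missing (adjusted p = 0.249) or without the stage term (1.90 ± 0.72, adjusted p = 0.444). No neural library was from E9.5, so the E9.5 stage term came from the other classes. Cdkn1a was at its floor in every E9.5 mesenchyme library. Without the olfactory pit, which leaves epidermal ectoderm alone, the log2 difference was 2.29 and the gene was not called. That fit takes the E9.5 stage term from mesenchyme and assumes that epidermal ectoderm varies like the other groups. The relative value of epidermal ectoderm, 1.58, lay within the neural range of 0.545 to 2.16. The call was also lost without epidermal ectoderm (2.89, adjusted p = 0.0752) and without 4 of the 6 neural libraries in turn, while the differences stayed between 2.29 and 3.01. Those were the caudal brain (0.0553), floor plate (0.0556), lateral prominence (0.126) and dorsal control (0.0881) libraries. Against mesenchyme the log2 difference was 2.03 ± 0.49 with an adjusted p of 0.0652, and 2.08 ± 0.50 with an adjusted p of 0.0366 without the library labelled medial nasal prominence. Neuron markers stood at a mean log2 level of 3.74 in the olfactory pit and 1.35 in epidermal ectoderm, against 0.44 to 1.75 in neural epithelium, with Neurog2 at its lowest value in both. The erythroid list stood at 4.93 and 2.76, against 0.03 to 2.47 in neural epithelium, with Gata1 at its lowest value in all of these libraries. The part of either cell type in the Cdkn1a value was not tested.

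Cdkn1b encodes p27, which rises in many cells as they stop dividing. In E8.5 neural epithelium its relative values were 0.589 in the caudal brain, 0.493 in the floor plate and 0.472 in the non-floor plate library. At E10.5 they were 1.68 in the lateral prominence, 1.60 in the central and 2.66 in the dorsal control library. All E10.5 values were above all E8.5 values, and the gene rose 3.74-fold (log2 difference 1.90 ± 0.43, limma adjusted p = 0.0142). Without the non-floor plate library the adjusted p was 0.0558. In the 7 other mesenchyme libraries Cdkn1b lay between 0.624 and 1.21, while the library labelled medial nasal prominence had 2.59, close to the dorsal control neural library. No call was made between E10.5 and E9.5 mesenchyme (log2 difference 0.13 ± 0.40, adjusted p = 0.851, and -0.30 ± 0.27, adjusted p = 0.443, without the medial nasal library).

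Cdkn1c encodes p57, an imprinted inhibitor. It was highest in the dorsal control neural library at 4.30, the library labelled medial nasal prominence at 3.88 and the E10.5 maxillary and mandibular arches at 2.87 and 2.77. The lateral nasal prominence, at 0.848, did not share the high value of the arches. The lowest values were 0.213 in the caudal brain and 0.337 in the non-floor plate library, and the E10.5 lateral prominence neural library at 0.619 lay below the E8.5 floor plate at 0.702. The stage differences were 2.03 ± 0.69 in neural epithelium (adjusted p = 0.0698) and 1.61 ± 0.65 in mesenchyme (adjusted p = 0.113), and neither was called. In mesenchyme it was 1.35 ± 0.70 (adjusted p = 0.165) without the medial nasal library. Cdkn2d, the Ink4 inhibitor p19, was at its floor in 8 libraries and highest at 3.28 in the E10.5 maxillary arch. Its stage difference in mesenchyme was 0.84 ± 0.33 (adjusted p = 0.107). Cdkn1a in mesenchyme was at its floor in all 3 E9.5 libraries and in 1 at E10.5, with a stage difference of 1.75 ± 0.50 (adjusted p = 0.0509). When the library labelled medial nasal prominence was left out, both genes passed the test, Cdkn1a at 1.61 ± 0.54 (adjusted p = 0.0435) and Cdkn2d at 1.04 ± 0.31 (adjusted p = 0.0273). Cdkn2d was then at its floor in 2 of the 3 E10.5 libraries, and the differences as deposited were 0.12 for Cdkn2d and 0.69 for Cdkn1a, before the shift of 0.92 was removed. With region as a block for the arches, an alternative chosen after seeing the data, Cdkn2d had 0.94 ± 0.25 (adjusted p = 0.0489).

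**Figure D2:**
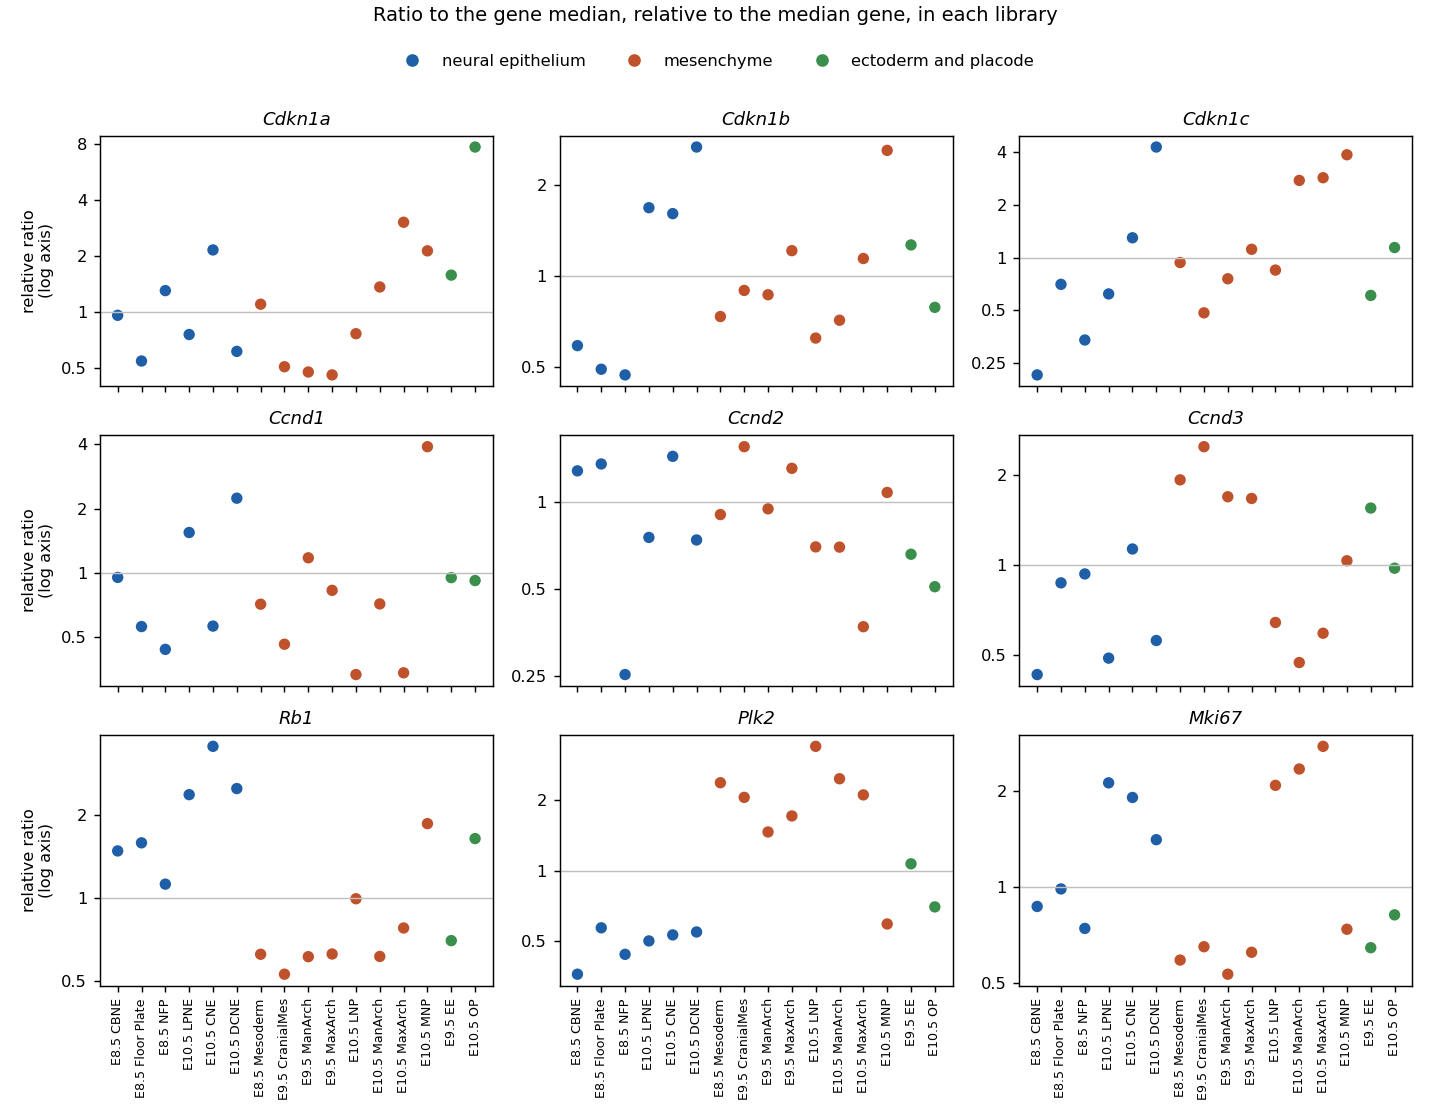
Relative value (ratio to the gene median, relative to the median gene of the library, log axis) of 9 members in each of the 16 libraries, ordered and coloured by tissue class, with 1 point a library and library names as in the plot of role medians. Plk2 separates mesenchyme from neural epithelium, Rb1 does so except for the library labelled medial nasal prominence, Cdkn1a is highest in the olfactory pit at 7.72, and Mki67 is above 1.4 only in the 6 E10.5 libraries with lower values across genes.

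D cyclins and their kinases start the G1 phase. Ccnd1 was highest in the library labelled medial nasal prominence at 3.90, then 2.24 in the dorsal control and 1.55 in the lateral prominence neural library. Its lowest values were 0.335 and 0.342, in the lateral nasal prominence and the E10.5 maxillary arch. Ccnd1 was called in none of the 5 comparisons, with and without that library. Ccnd2 ranged from 0.253 in the non-floor plate library to 1.56 in cranial mesenchyme and was likewise never called.

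Ccnd3 separated the mesenchyme stages. Its relative values were 2.49 in cranial mesenchyme and 1.69 and 1.67 in the mandibular and maxillary arches at E9.5. At E10.5 they were 0.643 in the lateral nasal prominence, 0.473 in the mandibular and 0.592 in the maxillary arch, and 1.03 for the medial nasal one. Every E10.5 value lay below every E9.5 value, and Ccnd3 fell 2.92-fold (log2 difference -1.54 ± 0.37, limma adjusted p = 0.0335). With that library labelled medial nasal left out, the difference was -1.76 ± 0.36 (adjusted p = 0.00652).

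Cdk6, a partner of the D cyclins, went the opposite way in the neural libraries. It stood at 0.309, 0.247 and 0.303 in the E8.5 caudal brain, floor plate and non-floor plate libraries, of which 2 were at its floor, and at 0.834, 1.54 and 2.37 in the E10.5 lateral prominence, central and dorsal control libraries. The E10.5 values were all higher, and the log2 difference was 2.35 ± 0.44 (adjusted p = 0.00661). In mesenchyme the E9.5 values were 1.08 to 2.17 and the E10.5 values 0.395 to 1.27, with a difference of -1.23 ± 0.42 (adjusted p = 0.0767). Cdk6 fell without the library labelled medial nasal prominence (-1.54 ± 0.38, adjusted p = 0.013). The difference between the 2 stage contrasts was not tested.

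From E8.5 to E10.5 in neural epithelium 8 members rose and 5 fell, 7.34% and 4.59% of members. Over all genes 6.7% rose and 6.06% fell, so the share of members was near the background. Without the library labelled medial nasal prominence, which takes part only in the estimate of spread, 14 rose and 12 fell, beside 10.9% and 9.15% of all genes, and all 13 calls were kept. The E10.5 neural libraries had a mean shift 0.37 lower on the log2 scale than the E8.5 ones. With values as deposited, 1 member (Cenpe) rose and 7 fell, beside 1.5% and 8.19% of all genes. The 13 genes kept their direction under that scaling.

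In the Rb and E2f group 3 of 11 genes rose, Rbl1, Rbl2 and E2f7, and 1 fell, E2f4. Rbl1 encodes p107 and Rbl2 p130, relatives of Rb1. Rbl1 was 1.11, 0.661 and 0.701 in the E8.5 caudal brain, floor plate and non-floor plate libraries and 2.33, 2.11 and 1.56 in the E10.5 lateral prominence, central and dorsal control libraries. Rbl2 was 0.636 to 0.840 at E8.5 and 1.35 to 2.35 at E10.5, again without overlap. The log2 differences were 1.30 ± 0.33 (adjusted p = 0.0232) and 1.40 ± 0.38 (adjusted p = 0.0291). Rb1 had 0.99 ± 0.36 (adjusted p = 0.0841), and it rose without the library labelled medial nasal prominence (adjusted p = 0.0174). E2f7, an atypical repressor, rose by 0.83 ± 0.22 (adjusted p = 0.0256), while E2f4, a repressor that pairs with p107 and p130, fell by 1.30 ± 0.30 on the log2 scale (adjusted p = 0.0166). E2f4 was 0.993 to 1.25 in the E8.5 and 0.345 to 0.627 in the E10.5 neural libraries.

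Replication genes had 2 of 23 members called in neural epithelium, both lower at E10.5. Orc5, of the origin recognition complex, was 1.19 to 1.96 at E8.5 and 0.479 to 0.787 at E10.5, a log2 difference of -1.30 ± 0.28 (adjusted p = 0.0111). Mcm3, of the helicase, was 1.67, 1.59 and 1.47 in the E8.5 caudal brain, floor plate and non-floor plate libraries and 1.01, 0.819 and 0.782 in the E10.5 lateral prominence, central and dorsal control ones. Its difference was -0.86 ± 0.23 (adjusted p = 0.0256). Mcm2, Mcm5, Gins2 and Gins4 also fell once the library labelled medial nasal prominence was left out, with log2 differences of -0.60 to -1.40. The median over the 23 genes was -0.33, beside 0.11 over all genes tested. Pcna, the sliding clamp, gave 0.19 ± 0.20 (adjusted p = 0.548).

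Mitotic genes moved in both directions in the neural libraries. Cenpe, a kinetochore motor, was 0.800, 0.954 and 0.546 in the E8.5 caudal brain, floor plate and non-floor plate libraries and 2.66, 2.90 and 1.92 in the E10.5 lateral prominence, central and dorsal control libraries. It rose 3.29-fold (log2 difference 1.72 ± 0.40, adjusted p = 0.0166). Cenpf, a kinetochore and matrix protein, rose by 0.92 ± 0.24 (adjusted p = 0.0256). Cdc25b, the phosphatase that activates CDKs before mitosis, rose 4.63-fold (2.21 ± 0.50, adjusted p = 0.0144), from 0.372 to 0.868 at E8.5 to 1.98 to 3.19 at E10.5. Cdc20, the activator of the anaphase promoting complex, fell 2.82-fold (-1.50 ± 0.43, adjusted p = 0.038), from 0.870 to 1.19 at E8.5 to 0.214, 0.327 and 0.754. Cdc123, a translation initiation assembly factor despite its name, fell by 1.39 ± 0.23 on the log2 scale (adjusted p = 0.0034).

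The cyclins A, B, E and F with Cdk1 and Cdk2 and the anaphase promoting complex, 12 tested genes, had no member called in any of the 5 comparisons with all libraries. Of all genes, 1.53%, 1.19% and 0.778% were called between tissue classes. Between stages 6.7% rose and 6.06% fell in neural epithelium and 4.68% and 2.5% in mesenchyme, so a lack of calls among 12 genes says little. Without the library labelled medial nasal prominence 2 of the 12, Ccnf and Cdk1, were called lower in E10.5 mesenchyme, where 9.57% of all genes fell. Bub1, a spindle checkpoint kinase, varied only 1.71-fold between its highest and lowest library.

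Cdk6 and Cdc123 were called without any 1 of the 6 neural libraries. Without the non-floor plate library 3 members were called in all, and the adjusted p was 0.0553 for Orc5, 0.0734 for Cenpe, 0.0671 for E2f4 and 0.0836 for Rbl1. Without the caudal brain library 6 were called, and Cdc25b (0.0586) and E2f4 (0.0666) were not. Without the central library Cenpe had an adjusted p of 0.0571. Rbl1, Rbl2 and Cenpf were not called without 4 of the 6 libraries, and Cdc20, E2f7 and Mcm3 without 5, with adjusted p up to 0.116. Each of the 13 kept its direction without any 1 library. Neuron markers had mean log2 levels of 0.44 to 0.74 at E8.5 and 1.15 to 1.75 at E10.5, where 1 of 9 tested, Elavl4, was called. At E8.5, 7 of the 10 neuron markers, such as Dcx, Elavl3 and Neurog2, were at their lowest value in every neural library. The erythroid list stood at 0.03 to 0.46 and 2.09 to 2.47, with 2 of 7 called. The endothelial list stood at 0.13 to 0.25 and 0.00 to 0.48, with 1 of 6 called, Pecam1 (1.63 ± 0.46, adjusted p = 0.0363), while Cldn5 was at its lowest value in all 6 libraries. The part of these cell types in these differences was not tested.

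**Figure D3:**
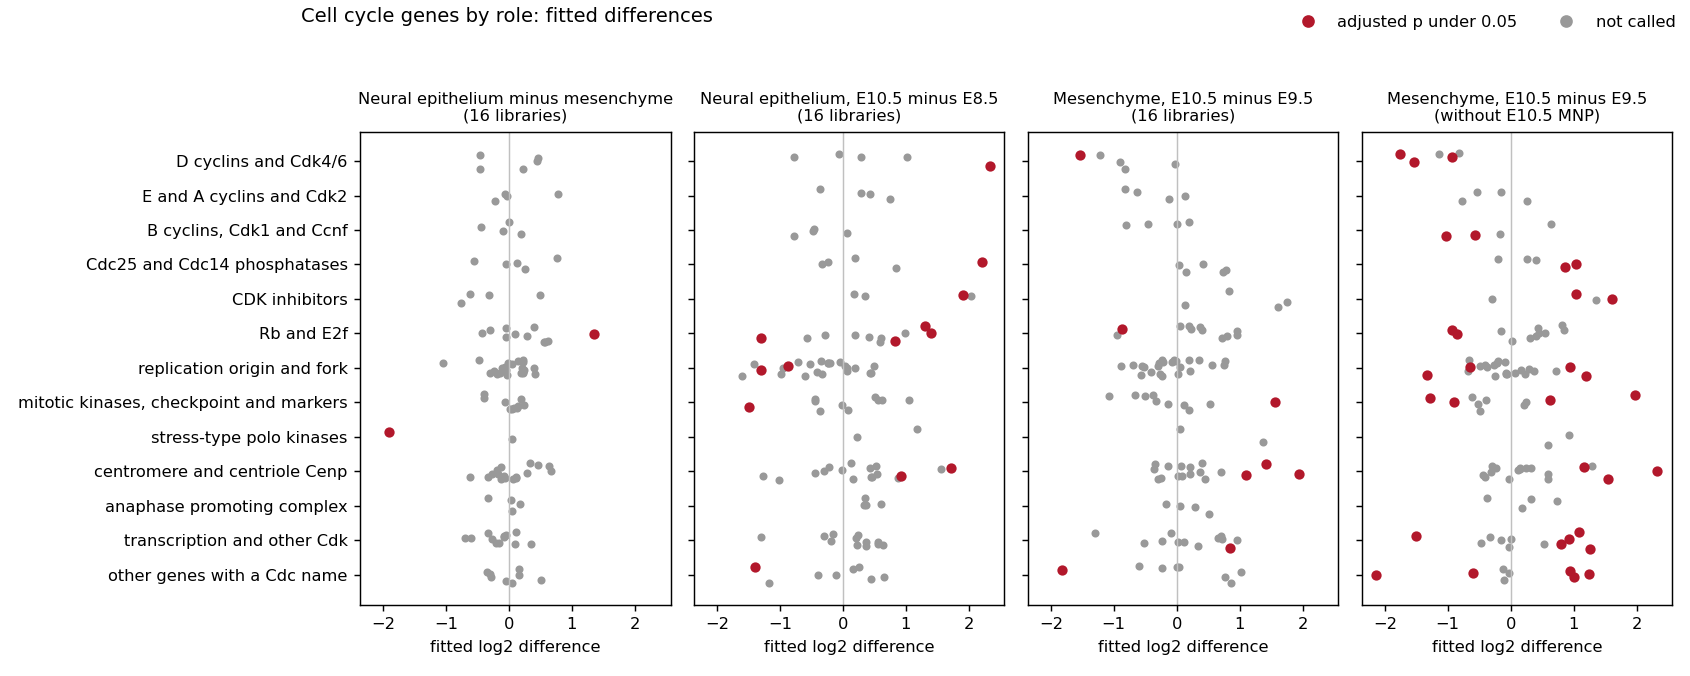
Fitted log2 difference (x axis) of each tested cell cycle gene, in rows by role, for neural epithelium against mesenchyme and for both stage comparisons, the last also without the library labelled medial nasal prominence (E10.5 MNP). Red points passed an adjusted p of 0.05 in limma. Few points are red between the tissue classes (2 of 109), and the stage comparisons have red points on both sides of 0 (8 higher and 5 lower in neural epithelium, 5 and 3 in mesenchyme).

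From E9.5 to E10.5 in mesenchyme 5 members rose and 3 fell, 4.59% and 2.75% of members, beside 4.68% and 2.5% of all genes. Without the library labelled medial nasal prominence 18 of 108 rose and 14 fell, beside 18.7% and 9.57%. Of the 18, 7 rested in part on floor values at E10.5, such as Cdk18 and Mcm9, whose floor is raised when the library shift is removed, and 14 had a difference above 0 as deposited. The shift was 0.70 lower on the log2 scale at E10.5 with all libraries and 0.92 lower without that library. As deposited, 2 members (Cenpe and Mki67) rose and 21 fell, beside 0.584% and 14.6% of all genes. The median member had a log2 difference of 0.06 and the median gene 0.16.

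Mki67 encodes Ki-67, the protein most used to mark dividing cells. Its relative values were 0.651 in cranial mesenchyme, 0.534 in the mandibular and 0.626 in the maxillary arch at E9.5. At E10.5 they were 2.08 in the lateral nasal prominence, 2.34 in the mandibular and 2.75 in the maxillary arch, and 0.738 for the medial nasal one. All E10.5 values were higher than all E9.5 values, although the last came close. The log2 difference was 1.56 ± 0.37 (limma adjusted p = 0.0341), and 1.98 ± 0.22 without that library (adjusted p = 0.00057). The neural libraries gave 1.05 ± 0.40 between E8.5 and E10.5 (adjusted p = 0.0995). There Mki67 was called higher once the library labelled medial nasal prominence was left out (adjusted p = 0.00797). The olfactory pit at 0.819 was near the epidermal ectoderm at 0.646.

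Cenpe, Cenpj, a centriole protein, and Cenpf rose with it, by 1.94 ± 0.38, 1.42 ± 0.27 and 1.10 ± 0.23 (adjusted p = 0.0197, 0.0168 and 0.0236), and by 2.32 ± 0.27, 1.55 ± 0.26 and 1.17 ± 0.21 without the medial nasal library (adjusted p = 0.000593, 0.00288 and 0.00384). Cenpe was 0.476 to 0.520 at E9.5, 1.98 to 3.22 in the E10.5 lateral nasal and arch libraries, and 0.860 for the medial nasal one. Cdk5, a neuronal kinase, was called higher by 0.84 ± 0.21 (adjusted p = 0.0353), but it was at its floor in 13 of the 16 libraries, with 0.14 ± 0.18 as deposited (adjusted p = 0.604). Top2a, the topoisomerase that untangles chromosomes, had 0.53 ± 0.21 (adjusted p = 0.108) and 0.62 ± 0.19 without the medial nasal library (adjusted p = 0.0319), but its difference there was -0.30 as deposited, so its direction turned with the scaling. Mki67, Cenpe, Cenpj and Top2a were the 4 members whose values in the 6 E10.5 libraries with lower values all lay above those of the other 10. This was 3.67% of members, beside 4.26% of all genes, and the E10.5 olfactory pit and the library labelled medial nasal prominence did not share it.

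The genes that fell in E10.5 mesenchyme were Ccnd3, Cdc34, a ubiquitin-conjugating enzyme of the SCF complex, and E2f5, a repressor E2F. Cdc34 was 1.38, 0.881 and 1.19 in cranial mesenchyme and the mandibular and maxillary arches at E9.5. It was 0.367, 0.274 and 0.170 in the lateral nasal prominence and the mandibular and maxillary arches at E10.5, and 0.604 for the medial nasal one. The log2 differences were -1.83 ± 0.46 for Cdc34 (adjusted p = 0.0368) and -0.87 ± 0.23 for E2f5 (adjusted p = 0.042). They were -2.13 ± 0.38 (adjusted p = 0.0035) and -0.94 ± 0.23 (adjusted p = 0.0123) without the medial nasal library. Without that library Cdk1, the mitotic kinase, fell by 1.02 ± 0.33 (adjusted p = 0.037), Cdk4 by 0.93 ± 0.21 (adjusted p = 0.00976), Cdc20 by 1.28 ± 0.39 (adjusted p = 0.0316) and Mcm2 by 0.64 ± 0.16 (adjusted p = 0.0127). With it, their adjusted p was 0.132 for Cdk1, 0.0502 for Cdk4, 0.0992 for Cdc20 and 0.0675 for Mcm2. Ccnb1, the cyclin partner of Cdk1, gave 0.00 ± 0.24 (adjusted p = 0.994), and Pcna 0.03 ± 0.19 (adjusted p = 0.934). Without the medial nasal library these were -0.17 ± 0.21 (adjusted p = 0.582) and 0.07 ± 0.18 (adjusted p = 0.805).

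No more than 4 members were called when any 1 of the 6 other mesenchyme libraries of these stages was left out. The count was 0 without cranial mesenchyme and without the E9.5 mandibular arch, and 1 without the E9.5 maxillary arch. It was 1 without the E10.5 mandibular arch, 2 without the maxillary arch and 4 without the lateral nasal prominence. Ccnd3, Mki67, Cdc34, E2f5 and Cdk5 lost their call whichever of the 6 was left out, with limma adjusted p up to 0.152. Their direction stayed the same. With the medial nasal library left out in turn too, Cenpj kept its call in 5 of 7 fits, Cenpe in 3 and Cenpf in 2. Erythroid markers stood at mean log2 levels of 4.40 to 6.98 at E9.5 and 4.17 to 5.82 at E10.5, with 2.84 for the medial nasal one. Before the library shift was removed, the endothelial list stood at 1.99 to 2.40 at E9.5 and 0.82 to 1.07 at E10.5. After its removal the median log2 difference of this list was -0.57, and -0.15 without the medial nasal library, with 0 of 6 genes called. Neuron markers were at 0.00 to 0.23 in these mesenchyme libraries and at 2.56 in that library, where Neurod1, Neurog1, Neurog2 and Nhlh1 were at their lowest value. Their part was not tested.

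Stage differences of the members moved with transcript length, taken as the longest GENCODE vM21 transcript of each gene. In neural epithelium the 19 members under 2000 bases had a median log2 difference of -0.44, the 50 of middle length 0.11 and the 38 over 4000 bases 0.37. In mesenchyme the medians were -0.14, 0.06 and 0.25. Spearman's rho is given as a description across genes, which are not independent and share the same libraries. It was 0.34 over 107 members and 0.27 over 12173 genes in neural epithelium, and 0.20 and 0.13 in mesenchyme. The trend was not limited to stage: neural epithelium against mesenchyme gave 0.23 and 0.14. Ectoderm and placode gave -0.02 and 0.06 against mesenchyme, and -0.20 and -0.06 against neural epithelium. Among the genes named above, Cenpf at 11130, Mki67 at 10061 and Cenpe at 7910 bases are long, and Cdc20 at 1793 and Cdc34 at 1266 bases are short. Cdk6, at 11525 bases, rose by 2.35 in neural epithelium but had -1.23 in mesenchyme. Cdkn1c, at 1901 bases, went the opposite way to the trend, with 2.03 and 1.61. Of these 4 differences only the 2.35 was called with all libraries. The part of length in their differences was not tested.

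**Figure D4:**
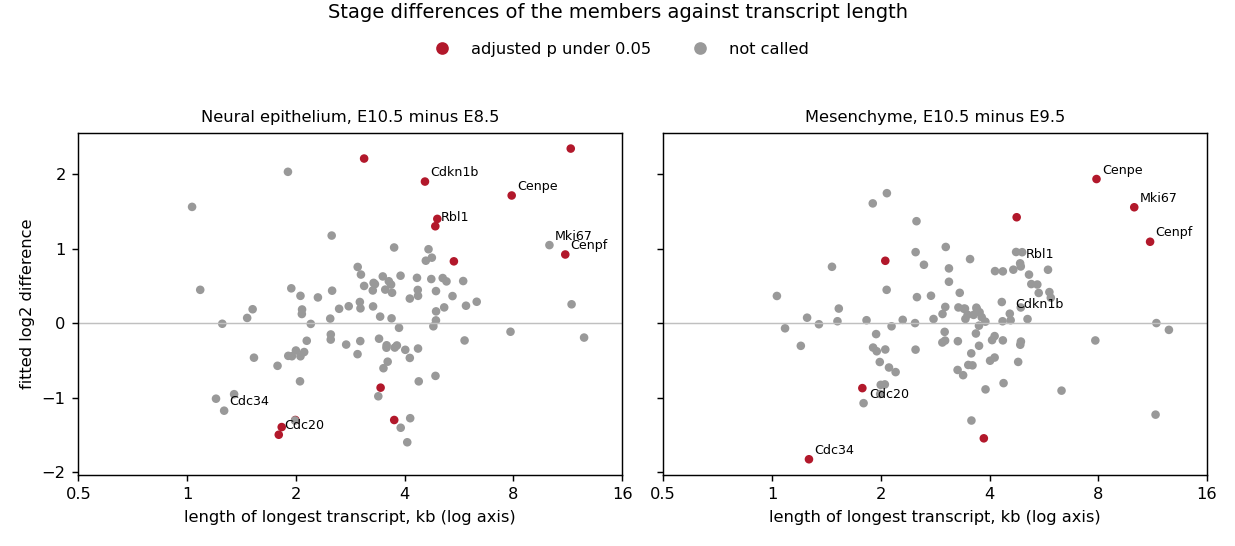
Fitted log2 difference between stages (y axis) of the members against the length of their longest transcript in kilobases (x axis, log scale), in neural epithelium and in mesenchyme, with called genes in red. Long transcripts lie more often above 0: the medians are -0.44 for members under 2000 bases and 0.37 for those over 4000 bases in neural epithelium.

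Other genes of the same pathways, which the name pattern did not take, were counted beside the members. The shares of all genes that rose and fell were 6.7% and 6.06% in neural epithelium and 4.68% and 2.5% in mesenchyme, as above. In mesenchyme without the library labelled medial nasal prominence they were 18.7% and 9.57%. Of 34 further replication genes, such as polymerase and primase subunits, none was called between tissue classes, with and without the medial nasal library. From E8.5 to E10.5 in neural epithelium 3 rose and 3 fell: Clspn, a checkpoint adaptor of the fork, rose by 1.77 ± 0.24 (limma adjusted p = 0.00128), and Ung, a uracil glycosylase, fell by 2.95 ± 0.62 on the log2 scale (adjusted p = 0.0102). In mesenchyme 2 rose, Clspn and the primase subunit Prim1, and Rpa2 fell, and without the medial nasal library 4 rose and 9 fell, these 3 among them. Of 38 further mitosis genes tested, 6 rose and 2 fell in neural epithelium and 4 rose and 0 fell in mesenchyme, or 9 and 6 without the medial nasal library. Smc4, of condensin, rose in both, by 1.43 ± 0.42 (adjusted p = 0.0402) and 1.51 ± 0.39 (adjusted p = 0.0395), the latter 1.77 ± 0.37 (adjusted p = 0.00703) without that library.

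Growth arrest genes gave 2 higher and 1 lower of 11 in each stage comparison. Of all genes, 6.7% rose and 6.06% fell in neural epithelium, and 4.68% and 2.5% in mesenchyme. Btg2, an antiproliferative factor of neuron-producing progenitors, rose by 1.54 ± 0.41 in neural epithelium (limma adjusted p = 0.0274) and by 1.44 ± 0.38 in mesenchyme (adjusted p = 0.0427). In mesenchyme it was at its floor in all 3 E9.5 libraries and in 2 of 4 at E10.5, and the difference was 1.17 ± 0.31 without the medial nasal library (adjusted p = 0.0179). It was at its floor in all 3 E8.5 neural libraries too. Plagl1, an imprinted zinc finger gene, rose by 3.63 ± 0.78 in neural epithelium (adjusted p = 0.0114). Trp53, which encodes p53, fell in both, by 1.26 ± 0.30 (adjusted p = 0.0175) and 1.37 ± 0.28 (adjusted p = 0.0234), the latter 1.48 ± 0.27 (adjusted p = 0.00398) without that library. Gadd45g, the other gene that rose in mesenchyme, had 1.08 ± 0.30 (adjusted p = 0.0453), and 0.39 as deposited. It was at its floor in 3 of 4 libraries at E10.5 and 2 of 3 at E9.5. None of the 11 was called between tissue classes with all libraries. Without the medial nasal library 1 was called higher in ectoderm and placode than in neural epithelium, beside 1.66% of all genes called in either direction.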

How the data were processed

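Per the labels, a Zymo ZR RNA MicroPrep kit was used and single-end reads of 50 bases were made on an Illumina HiSeq. The build mm9 and the tools Cufflinks, Bowtie, TopHat and TopHat2 come from the submitters' processing notes; the gene annotation is not given in the sources used here, nor are versions. The deposited values are a ratio to the gene's median over the 16 libraries, as the values show. The unit before division is not stated, and the depth of each library is unknown, so no counting interval was computed.

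A value was at the floor where at least 2 libraries shared the lowest value. The library shift, the median log2 ratio of the 7082 genes with no shared lowest value, was removed. In R 4.3.3, limma 3.58.1 was fitted with its trend of variance on mean to all 16 libraries, with tissue class and stage for class comparisons and cell means for stage comparisons, and was tested on simulated data. Values at the floor entered as they stand. Genes named were every member called (at most 25 a comparison), CDK inhibitors, D cyclins and Mki67, Pcna, Top2a, Mcm2, Cdk1 and Ccnb1. Genes named outside this rule (Orc4, Bub1, Ccnf, Cdk4, Cdk18, E2f3, Mcm5, Mcm9, Gins2, Gins4 and, where not called, Rb1, Cdk6, Plk2 and Cdc20) were chosen after their values were seen. The members, role groups and lists were chosen with earlier results of these data known. Alternatives covered scaling, the floor, filters, the call rule, the trend, the stage term, a region block and left-out libraries.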

Additional observations from a re-analysis of the deposited data

Results flagged for a closer look

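In 62 groups of 4 to 10 libraries, over 32 named genes, 2 values stood far from the rest of their class. Chance gives about 1 in 20, so 2 in 62 is not more than chance gives. Both belong to the library labelled medial nasal prominence among the 8 mesenchyme libraries. Ccnb1 had a relative value of 1.28 there, and Cdkn1b one of 2.59.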

How the results depend on the processing

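No gene called in the main fits, with all 16 libraries and the shift removed, reversed its direction under any alternative run. Of the 18 members called higher in E10.5 mesenchyme without the library labelled medial nasal prominence, 14 were above 0 as deposited. Counts of members called moved by over 1.5 times as follows, and the cause was not tested unless given. For neural epithelium against mesenchyme, 2 became 1 as deposited and 1 with floor values as missing, and 0 without both E10.5 arches, with E10.5 libraries only, and without the 6 E10.5 libraries with lower values (fewer libraries; the last was chosen after seeing the data). For ectoderm and placode against mesenchyme, 0 became 1 as deposited, 1 with the shift from all genes tested, and 2 without the library labelled medial nasal prominence. Against neural epithelium, 1 became 0 with floor values as missing, with the filter set to 8 or more libraries above the floor, without the arches, without the stage term and without the 6 libraries. For neural epithelium between stages, 13 became 8 as deposited (1 higher, 7 lower) and 26 without the library labelled medial nasal prominence. For mesenchyme between stages, 8 became 23 as deposited (2 higher, 21 lower), 13 with the shift from all genes, 32 without that library and 0 without the arches. Leaving out each library in turn gave 0 to 3, 0 to 2, 0 to 1, 3 to 11 and 0 to 32 members called in these 5 comparisons. No paired analysis was possible because the labels give no replicate numbers. The mandibular and maxillary arches were sampled at both E9.5 and E10.5, and with region as a block for them, chosen after seeing the data, 9 members were called in mesenchyme between stages (6 higher, 3 lower). A pseudocount does not apply to values that are never 0. Without read totals, small differences of genes near their floor cannot be judged.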

Other observations

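Some members outside the comparisons stood apart in single libraries, given here as values chosen after they were seen. Plk3, a stress-responsive polo kinase, was at its floor in 11 of 16 libraries. It had relative values of 5.40 in the library labelled medial nasal prominence and 5.30 in the dorsal control neural library. The next value above the floor was 1.68 in the olfactory pit. The floor itself reached 1.77 in the E10.5 maxillary arch after the library shift was removed. The library labelled medial nasal prominence and the dorsal control neural library also held the 2 highest values of 4 other members. These were Cdkn1b (2.59 and 2.66), Cdkn1c (3.88 and 4.30), Ccnd1 (3.90 and 2.24) and Cdc25b (2.61 and 3.19). Cdk9, a transcription elongation kinase, was 3.92 in the E9.5 mandibular arch, 2.02 in epidermal ectoderm and 1.46 in the E9.5 maxillary arch. Cenpw, a centromere protein, was 2.65 in the E10.5 mandibular arch and 0.224 in epidermal ectoderm, 11.8-fold apart. Gins2, of the replicative helicase complex, was 0.230 in the E10.5 maxillary arch and 1.58 in the E8.5 caudal brain.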
